A study of Gallus gallus with 6 samples.

Results

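The lens identity transcription factors examined here are 10 genes chosen by name, PAX6, PROX1, SOX1, SOX2, FOXE3, SIX3, PITX3, TFAP2A, GATA3 and MAF, and 8 of them have a row among the 17262 genes of the deposited count table. FOXE3 and PITX3, which in the mouse maintain the lens epithelium and early lens growth, are absent from the symbols of that table and were not analysed here. All 8 genes with a row had enough reads for the test. At 1 h post wounding, 4 of them (PAX6, PROX1, SOX2 and SIX3) were significantly higher, against 19.8% of all genes tested. GATA3 and SOX1, 2 of the 8, were significantly lower, against 12.0%. The changes of MAF and TFAP2A did not reach the threshold. The calls of SIX3 and SOX1 were lost in 5 and 2 of 16 alternative fits.

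These proteins form the regulatory core that makes and keeps a cell a lens cell. PAX6 and SIX3 give the ectoderm its competence to form a lens, and PAX6 together with SOX2 binds lens enhancers such as that of delta crystallin, a major water-soluble protein of the bird lens. SOX1, PROX1, GATA3 and the large MAF proteins then act as epithelial cells at the equator leave the cell cycle, elongate into fibers and load themselves with crystallins, while TFAP2A belongs to the lens epithelium.

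RNA was sequenced from explants of lenses of chick embryos at embryonic day 14, in 3 libraries at 1 h post wounding and 3 libraries at time 0, each from a pool of 6 explants. In this ex vivo model of cataract surgery the fibers and the middle of the anterior epithelium are taken out, so that the explants consist of equatorial epithelium on its capsule, and of immune cells that live within it. By the study's methods the 1 h explants were incised, flattened on the dish and kept for 1 h in medium with serum, and those of time 0 were taken as soon as the wound was made, so that time since wounding, flattening and culture cannot be told apart in this comparison. All explants of either time point were wounded, and no unwounded lens was included.

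The libraries held between 13733581 and 17673955 counts, and 12391 genes had enough reads for the test. The values below are CPM, the share of a library's reads that fell on a gene, scaled by edgeR's TMM method, and "significantly" means an adjusted p under 0.05, from the quasi-likelihood test of edgeR and the Benjamini-Hochberg method over the 12391 genes. Lens markers were abundant, with summed levels of 6 lens epithelium markers between 3657 and 3758 CPM at 1 h and between 3752 and 3842 CPM at time 0. Most of this sum was GJA1, which was significantly lower, with 2248 CPM on average at 1 h and 2624 CPM at time 0. EPHA2 was significantly higher, with 243.7 CPM at 1 h and 31.7 CPM at time 0. COL4A1, CDH1, CDH2 and PDGFRA did not reach the threshold. The summed level of 5 lens fiber markers was lower at 1 h, between 2200 and 2435 CPM at 1 h and between 2927 and 3301 CPM at time 0. In these bulk samples, fewer cells of a type and less RNA per cell cannot be told apart.

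Neural retina markers set 1 library apart. In 1 h replicate 3, the 8 neural retina markers other than ELAVL4 summed to 233 counts, against 12 and 8 counts in the other 1 h libraries and 15, 15 and 13 counts in time 0 replicates 1, 2 and 3. OTX2 had 66 counts in 1 h replicate 3 and at most 1 count in any other library, and STMN2 had 56 and at most 1. Several of the genes described here, PAX6, SOX2, SIX3 and PROX1, are also known in the retina, and their values are therefore given below with and without 1 h replicate 3. With the whole list of 9 neural retina markers, ELAVL4 included, the summed level was between 35.3 and 55.0 CPM at 1 h and between 16.1 and 19.5 CPM at time 0. Most of this sum was ELAVL4, which was significantly higher at 1 h. It was at 34.5, 37.7 and 41.4 CPM at 1 h and at 15.3, 18.6 and 15.2 CPM at time 0. The other 8 markers summed to 0.783, 0.511 and 13.6 CPM at 1 h and to 1.11, 0.970 and 0.852 CPM at time 0. Blood cell markers differed in another library. HBA1 had 309 counts in 1 h replicate 1, 0 and 3 in 1 h replicates 2 and 3, and 29, 44 and 40 at time 0. HBE1 had 27 counts in 1 h replicate 1 and at most 2 in any other library. ALAS2 had 389, 461 and 498 counts at 1 h and 371, 389 and 411 at time 0. The part of the retina and blood marker reads in the members' changes was not tested.

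**Figure D1:**
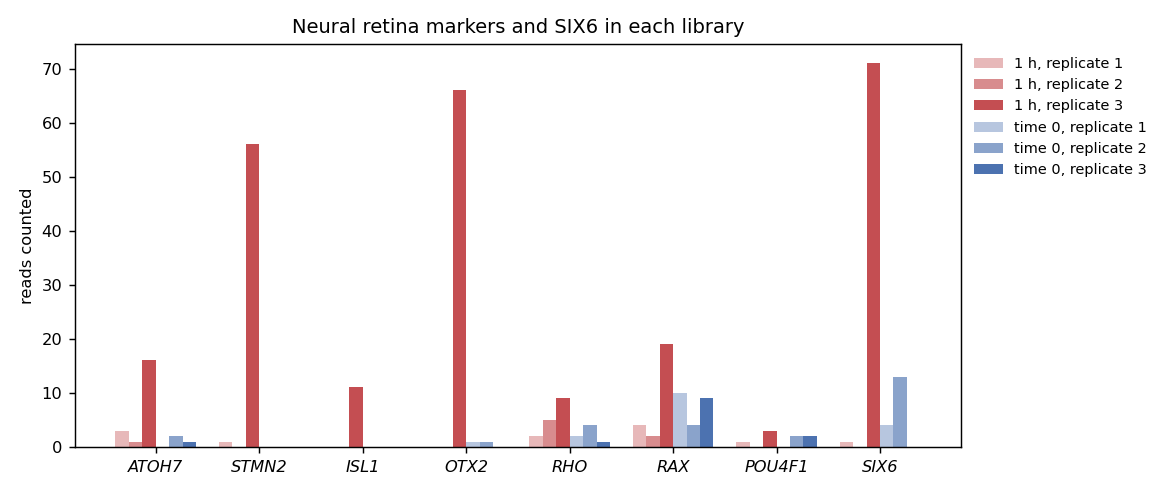
Reads counted for 7 neural retina markers and for SIX6 (y axis, raw counts) in each library (1 h libraries in red, time 0 libraries in blue). 1 h replicate 3 holds most of the reads of STMN2, OTX2 and SIX6, which has 71 counts there and at most 13 in any other library.

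Of the 8 members tested, 6 changed significantly, where 31.8% of all genes tested did. By direction, 4 were significantly higher at 1 h, against 19.8% of all genes tested, and 2 were significantly lower, against 12.0% of all genes tested. The median log2 fold change of the 8 members was 0.18, and that of all genes tested was -0.01. For each of the 6 significant members the 1 h libraries lay entirely on one side of the time 0 libraries, 4 above and 2 below, where 25.4% and 21.4% of all genes tested did so. With upper-quartile scaling, which moved the median of all genes tested to -0.14, 3 members were higher and 3 were lower. Of all 12391 genes tested, that scaling called 1901 higher and 3400 lower. Without 1 h replicate 3, 3 members were higher and 2 were lower, the gene no longer called being SIX3. That fit called 1965 higher and 1113 lower of the 12581 genes it tested.

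**Figure D2:**
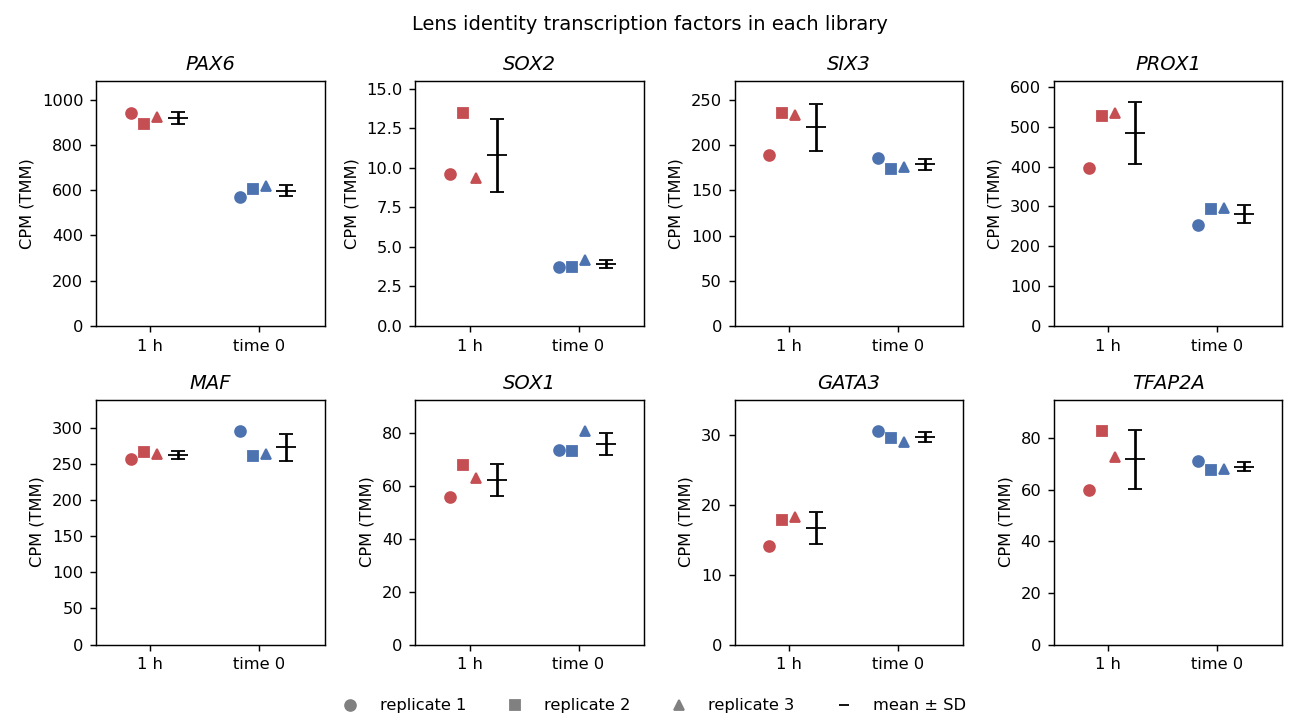
CPM with TMM scaling (y axis, from 0) of the 8 members in each 1 h library (red, left) and each time 0 library (blue, right), with mean ± SD over 3 libraries in black and a marker shape per replicate number. The 1 h libraries lie above the time 0 libraries for PAX6, SOX2, SIX3 and PROX1, and below them for SOX1 and GATA3. For MAF and TFAP2A the ranges of the time points overlap.

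PAX6 (ENSGALG00000012123, chromosome 5 from 5444151 to 5461448, minus strand, in the coordinates of the deposited table, which names no genome build) encodes the paired-box factor at the top of eye development. It had 14410, 13967 and 15819 counts in 1 h replicates 1, 2 and 3, and 7725, 9348 and 9416 counts in time 0 replicates 1, 2 and 3. The level was 918.9 ± 24.8 CPM at 1 h and 597.1 ± 24.6 CPM at time 0 (SD, n = 3 libraries each). All 1 h libraries lay within a narrow band well above the time 0 libraries, and the log2 fold change was 0.62 (standard error 0.07, edgeR adjusted p = 2.95e-05), a 1.54-fold increase. Without 1 h replicate 3 it was 0.60 (edgeR adjusted p = 0.000340). In the deposited table the gene ELP4, which encodes an elongator subunit, runs on the opposite strand across all 17298 bases of PAX6, and no source says whether reads were counted by strand. ELP4 was counted at 26.2 ± 4.73 CPM at 1 h and 20.8 ± 1.67 CPM at time 0, far below PAX6, and its log2 fold change of 0.33 was not significant (edgeR adjusted p = 0.0764).

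SIX3 (ENSGALG00000032259, chromosome 3 from 25943217 to 25946344, plus strand) encodes a homeodomain factor that in the mouse acts on Pax6 during lens induction. It had 2905, 3689 and 4002 counts at 1 h and 2522, 2688 and 2686 counts at time 0. The 1 h libraries were at 189.6, 235.5 and 233.8 CPM, and the time 0 libraries were at 186.0, 173.8 and 176.0 CPM, so that 1 h replicate 1 lay only just above time 0 replicate 1. The log2 fold change of 0.30 (standard error 0.09, edgeR adjusted p = 0.0224) was the smallest among the 4 higher members. The call was lost without 1 h replicate 2, 1 h replicate 3, time 0 replicate 2 or time 0 replicate 3 (edgeR adjusted p = 0.104, 0.114, 0.0670 and 0.0740), with log2 fold changes between 0.23 and 0.29, and with upper-quartile scaling (0.16). A lncRNA without a symbol (ENSGALG00000041015), which lies 5039 bases away on the opposite strand, had 190, 225 and 176 counts at 1 h and 207, 245 and 232 counts at time 0. Its log2 fold change was -0.32, without significance (edgeR adjusted p = 0.0924).

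SOX2 (ENSGALG00000043460, chromosome 9 from 17025522 to 17026706, minus strand), the HMG-box partner of PAX6 on lens enhancers, had the largest change of the 8 members. It was counted with few reads, 147, 211 and 160 at 1 h and 51, 58 and 64 at time 0. The level was 10.8 ± 2.31 CPM at 1 h and 3.90 ± 0.25 CPM at time 0 (SD, n = 3 libraries each), and even the lowest 1 h library, at 9.35 CPM, was above the highest time 0 library, at 4.19 CPM. The log2 fold change was 1.47 (standard error 0.19, edgeR adjusted p = 0.000109), a 2.76-fold increase with an interval of the fold from 2.07 to 3.69 at a confidence level of 95%. The lowest 1 h library was replicate 3, which held the retina marker reads, and without it the log2 fold change was 1.54 (edgeR adjusted p = 0.000199). Of the rows near SOX2, RF01953, a miscellaneous RNA 9207 bases away on the same strand, had 433, 335 and 401 counts at 1 h and 218, 320 and 205 counts at time 0, and its log2 fold change was 0.54 with a standard error of 0.16 (edgeR adjusted p = 0.0238).

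SOX1 (ENSGALG00000030353, chromosome 1 from 141152094 to 141154399, plus strand) is a SOXB1 factor like SOX2 and is needed for gamma crystallin expression in mouse fibers. Here SOX1 was lower at 1 h, with 56.0, 68.1 and 63.2 CPM at 1 h and 73.8, 73.4 and 80.7 CPM at time 0. The groups did not overlap, but the gap between 1 h replicate 2 and time 0 replicate 2 was small. The log2 fold change was -0.28 (standard error 0.09, edgeR adjusted p = 0.0249). Without 1 h replicate 1 or time 0 replicate 3 the call was lost (edgeR adjusted p = 0.0623 and 0.0984), at -0.23 and -0.24. Within a library, which removes the scaling, SOX2 had 0.171, 0.198 and 0.148 counts per SOX1 count at 1 h and 0.0509, 0.0511 and 0.0520 at time 0. This ratio was 3.36-fold higher at 1 h, without overlap between the time points. Its exact permutation test (two-sided) gave p = 0.1, the smallest that 3 against 3 libraries allow. That outcome was fixed in advance, since every 1 h library lay above time 0 for SOX2 and below it for SOX1. The pair was also chosen after its values were seen, so the ratio adds no evidence beyond the changes of SOX1 and SOX2.

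PROX1 (ENSGALG00000009791, chromosome 3 from 21385127 to 21421817, minus strand) encodes a prospero-type homeodomain factor that drives cell cycle exit and fiber elongation in the mouse. It had 6054, 8232 and 9147 counts at 1 h and 3444, 4523 and 4510 counts at time 0. The level was 485.1 ± 78.0 CPM at 1 h and 280.7 ± 23.2 CPM at time 0 (SD, n = 3 libraries each). All 1 h libraries were above all time 0 libraries, although 1 h replicate 1, at 395.2 CPM, was well below the 525.6 and 534.4 CPM of the other 1 h libraries. The log2 fold change was 0.79 (standard error 0.11, edgeR adjusted p = 0.000373), a 1.73-fold increase. It was 0.69 without 1 h replicate 3 (edgeR adjusted p = 0.00150) and 0.90 without 1 h replicate 1 (edgeR adjusted p = 1.26e-05).

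MAF (ENSGALG00000026258, chromosome 11 from 14531508 to 14691257, minus strand) encodes c-MAF, a bZIP activator of crystallin genes in mouse fibers. It was at 256.5, 267.0 and 264.5 CPM at 1 h and at 295.0, 261.1 and 263.4 CPM at time 0. The groups overlapped, and time 0 replicate 1 was the library farthest from the others. The log2 fold change was -0.06 (edgeR adjusted p = 0.585), and at a confidence level of 95% the interval of the fold was from 0.862 to 1.07. With upper-quartile scaling MAF was called lower, at -0.19. Its relative MAFA, known in the chick as L-MAF and as an activator of lens crystallin genes, was lower, with 200.3 ± 15.0 CPM at 1 h and 312.4 ± 14.5 CPM at time 0 (SD, n = 3 libraries each).

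Counts per MAF count need no scaling between libraries, but they give changes relative to MAF only. That MAF differed little between the time points was itself seen with TMM scaling, and upper-quartile scaling called it lower. PAX6 had 3.67, 3.34 and 3.49 counts per MAF count at 1 h and 1.93, 2.32 and 2.34 at time 0. PROX1 had 1.54, 1.97 and 2.02 at 1 h and 0.861, 1.12 and 1.12 at time 0. Neither ratio overlapped between the time points (exact permutation test, two-sided, p = 0.1 for each, the smallest possible). Both were chosen after their values were seen, so they add no evidence beyond the changes of PAX6 and PROX1. PAX6 had 2.38, 1.70 and 1.73 counts per PROX1 count at 1 h and 2.24, 2.07 and 2.09 at time 0, with overlap (exact permutation test, two-sided, p = 0.4). Since 3 against 3 libraries cannot give a p below 0.1, this test could not tell whether the changes of PAX6 and PROX1 differ. In all, 5 ratios were compared, and after Benjamini-Hochberg adjustment the 4 that did not overlap each had an adjusted p of 0.125 in the exact permutation test.

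GATA3 (ENSGALG00000029270, chromosome 1 from 4968059 to 4987014, plus strand), a zinc-finger factor required for fiber differentiation in the mouse, showed the largest decrease of the 8 members. It had 215, 278 and 313 counts at 1 h and 413, 456 and 442 counts at time 0. The level was 16.7 ± 2.32 CPM at 1 h and 29.6 ± 0.75 CPM at time 0 (SD, n = 3 libraries each). The highest 1 h library, at 18.3 CPM, was below the lowest time 0 library, at 29.0 CPM. GATA3 had a log2 fold change of -0.83 with a standard error of 0.11 (edgeR adjusted p = 0.000170), and only 1.90% of all genes tested had a log2 fold change as low or lower. Immune cells can express GATA3 as well, and the summed level of 6 immune cell markers, none of which changed significantly among the 4 tested, was between 4.47 and 8.29 CPM at 1 h and between 5.09 and 6.60 CPM at time 0. Their part in the decrease of GATA3 was not tested.

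TFAP2A (ENSGALG00000012775, chromosome 2 from 63286294 to 63299774, plus strand) encodes the AP-2 alpha factor of the lens epithelium, which in the mouse is needed for separation of the lens vesicle. It was at 60.1, 82.6 and 72.5 CPM at 1 h and at 71.0, 67.7 and 68.1 CPM at time 0. The time 0 libraries lay within the range of the 1 h libraries, which spread widely. The log2 fold change was 0.06 (edgeR adjusted p = 0.710), and the interval of the fold, from 0.890 to 1.22 at a confidence level of 95%, leaves room for a change of either sign, as the estimate was negative with upper-quartile scaling or without 1 h replicate 2. GATA3 had 0.234, 0.215 and 0.252 counts per TFAP2A count at 1 h and 0.429, 0.436 and 0.425 at time 0, without overlap (exact permutation test, two-sided, p = 0.1, the smallest possible). This pair too was chosen after its values were seen, so the ratio adds no evidence beyond the change of GATA3.

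**Figure D3:**
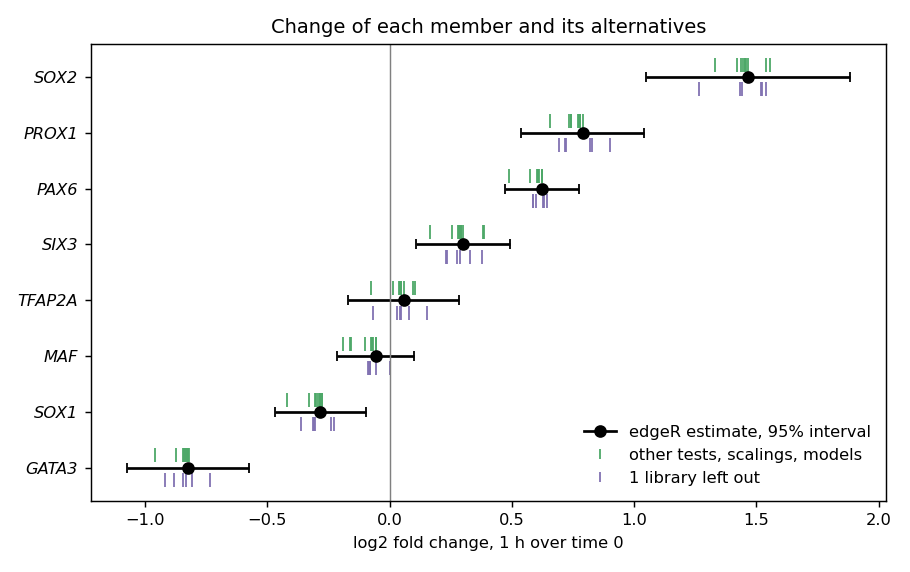
Log2 fold change of each member, 1 h over time 0 (x axis), with the edgeR estimate and its 95% interval in black, other tests, scalings and models as green ticks above, and fits that left out 1 library as purple ticks below. The estimates run from -0.83 for GATA3 to 1.47 for SOX2, and the ticks of TFAP2A and MAF fall on both sides of 0.

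The members varied more between libraries at 1 h than at time 0 in 6 of 8 cases. How many of all genes tested did so was not computed, so the count is not shown to be particular to the members. The 1 h libraries include those with the retina marker and HBA1 reads, whose part in this spread was not tested. The coefficient of variation at 1 h was 21.4% for SOX2, 16.1% for PROX1, 15.7% for TFAP2A and 13.9% for GATA3, and at time 0 it was between 2.55% for GATA3 and 8.26% for PROX1. PAX6 and MAF were the exceptions, with 2.70% and 2.08% at 1 h and 4.12% and 6.94% at time 0. Among the 1 h libraries, replicate 1 was the lowest for PROX1, SIX3, MAF, TFAP2A, SOX1 and GATA3 but the highest for PAX6.

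Per kilobase of listed gene length, PAX6 was the most abundant member at either time point, at 304.8 ± 8.24 CPM per kilobase at 1 h and 198.0 ± 8.16 at time 0 (SD, n = 3 libraries each). That placed PAX6 at the 98.4 percentile of all genes tested at 1 h and at the 97.7 percentile at time 0. SIX3 followed with 184.0 ± 21.8 at 1 h and 149.6 ± 5.42 at time 0, then PROX1 with 145.9 ± 23.5 and 84.4 ± 6.98, MAF with 55.9 ± 1.17 and 58.2 ± 4.04, TFAP2A with 39.2 ± 6.16 and 37.7 ± 0.99, and SOX1 with 27.1 ± 2.63 and 32.9 ± 1.77 CPM per kilobase, each at 1 h and then at time 0. At time 0 no member overlapped its neighbour in this order, whereas at 1 h the libraries of SIX3 and PROX1 overlapped. The last 2 places changed hands on this scale. SOX2 had 9.12 ± 1.95 CPM per kilobase at 1 h and 3.29 ± 0.21 at time 0, and GATA3 had 7.05 ± 0.98 at 1 h and 12.5 ± 0.32 at time 0, so that the lowest member was GATA3 at 1 h and SOX2 at time 0. SOX2 stood at the 50.5 percentile of all genes tested at 1 h and at the 27.9 percentile at time 0. The exchange rests on the listed gene lengths. In CPM, SOX2 stayed below GATA3, with 10.8 against 16.7 CPM at 1 h and 3.90 against 29.6 CPM at time 0.

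**Figure D4:**
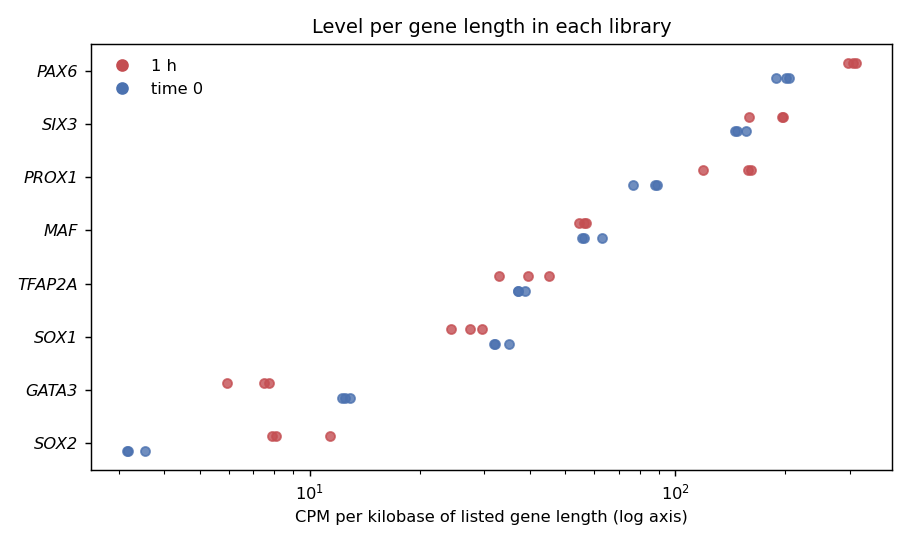
Level of each member in each library as CPM per kilobase of the gene length listed in the deposited table (x axis, log scale), 1 h in red above time 0 in blue, with genes ordered by their time 0 level. PAX6, SIX3 and PROX1 occupy the top at either time point, and SOX2 and GATA3 exchange their places at the bottom.

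A list of 30 other transcription factors and cofactors of lens development was examined next. Of these, 24 have a row in the table and 19 had enough reads for the test. Of the 19, 12 were significantly higher at 1 h, against 19.8% of all genes tested. Only 1, MAFA, was significantly lower, against 12.0% of all genes tested. Their median log2 fold change was 0.49, against -0.01 for all genes tested. Without 1 h replicate 3, 10 were higher and 1 was lower, and of all 12581 genes tested in that fit 1965 were higher and 1113 lower.

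The largest increase of the list was that of SIX4, a relative of SIX3, with 19.5, 25.1 and 34.0 CPM at 1 h and 4.65, 4.01 and 4.33 CPM at time 0. Its log2 fold change was 2.60 (standard error 0.21, edgeR adjusted p = 3.01e-06), and it was 2.34 without 1 h replicate 3, the highest of its libraries. POU2F1, which encodes the octamer-binding factor OCT1, rose by 1.19 on the log2 scale, with 14.5 ± 1.72 CPM at 1 h and 6.34 ± 1.24 CPM at time 0. EP300, the acetyltransferase p300 that activators such as the MAF proteins recruit, rose by 0.89 on the log2 scale, with 127.9 ± 14.4 CPM at 1 h and 69.0 ± 8.81 CPM at time 0 (SD, n = 3 libraries each). MAFA was the only gene of the list that fell significantly, its log2 fold change being -0.64 with a standard error of 0.08 (edgeR adjusted p = 5.35e-05). SMARCA4, MAB21L1, MEIS1, EYA2 and PKNOX1 were among those tested without reaching the threshold, with log2 fold changes between -0.13 and 0.16.

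SIX6 could not be tested and showed the same library as the retina markers, with 1, 0 and 71 counts at 1 h and 4, 13 and 0 counts at time 0. HSF4, a heat shock factor that acts in mammalian fibers, had at most 3 counts in any library, the floor used here.

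Genes that the members are known to regulate in the lens, chiefly crystallins and fiber genes, were mostly lower at 1 h. Of 23 genes listed, 21 were tested. At 1 h, 14 were significantly lower, against 12.0% of all genes tested, and 1 was significantly higher, against 19.8%. Their median log2 fold change was -0.41, against -0.01 for all genes tested. The 4 largest decreases were those of BFSP1, CRYBA4, CRYBB1 and BFSP2, fiber filament and beta crystallin genes, which fell by 2.23, 2.06, 1.84 and 1.27 on the log2 scale. BFSP1 was at 98.8, 51.9 and 34.3 CPM at 1 h and at 250.6, 393.3 and 222.0 CPM at time 0, and its call (edgeR adjusted p = 0.0278) was lost in 5 of the 6 fits that left out 1 library. The call of CRYBA4 (edgeR adjusted p = 0.0154) was lost without 1 h replicate 2 (edgeR adjusted p = 0.0676). CRYBA4 and CRYBB1 overlap on opposite strands, so their counts are uncertain. Without 1 h replicate 3, 13 targets were lower and 1 was higher, and of all 12581 genes tested in that fit 1113 were lower and 1965 higher.

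The most abundant crystallin of the list, CRYAA, was at 71641 ± 3452 CPM at 1 h and 79603 ± 8093 CPM at time 0 (SD, n = 3 libraries each), without a significant change. The delta crystallin gene ASL1, whose enhancer is bound by PAX6 and SOX2, was at 23572 ± 3033 CPM at 1 h and 33347 ± 4526 CPM at time 0 and fell by 0.50 on the log2 scale (edgeR adjusted p = 0.00703). ASL2, the other delta crystallin gene of the list, was at 3187 ± 328 CPM at 1 h and 3488 ± 371 CPM at time 0. Its log2 fold change of -0.13 was not significant (edgeR adjusted p = 0.336). CDKN1B, the cell cycle inhibitor p27 that marks exit from the cycle in the fiber lineage, was the only target that rose significantly. It was at 593.0, 585.0 and 657.6 CPM at 1 h and at 349.2, 332.1 and 328.4 CPM at time 0. Its log2 fold change was 0.86 (standard error 0.07, edgeR adjusted p = 3.05e-06). The decrease of the fiber genes ran together with the lower summed level of the fiber markers given above. All of those markers are also on the target list. The part of a different share of fiber RNA in the changes of the targets and of SOX1 and GATA3 was not tested.

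**Figure D5:**
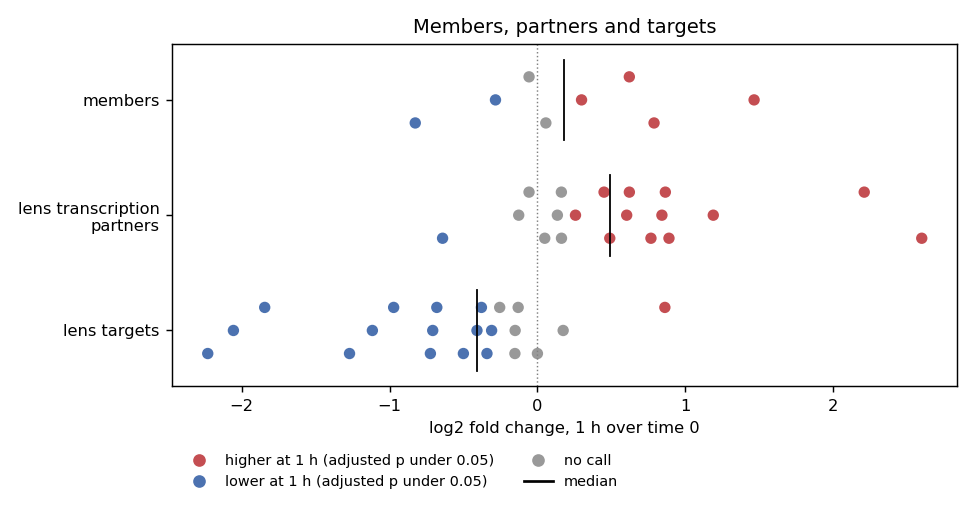
Log2 fold change, 1 h over time 0 (x axis), of the tested members, lens transcription partners and lens targets (rows, a point per gene), in red where significantly higher at 1 h, in blue where significantly lower and in gray otherwise, with the median of each row as a black line. The medians are 0.18, 0.49 and -0.41 from the top row down.

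Genes whose levels over the 6 libraries were most like those of the most significant member in each direction were found by Pearson's correlation of log2 CPM. For PAX6 these were DSTYK, RAB9A and SEC24B, each with r = 0.999. For GATA3 they were METRNL, ABHD10 and TANK, with r = 0.997, 0.997 and 0.995. The 6 libraries fall into 2 time points, so a high r mostly reflects that difference, and of 7605 genes compared 848 had an r over 0.95 with PAX6 and 228 with GATA3.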

How the data were processed

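The authors deposited raw counts of reads per gene and library in 1 table, with normalized values, FPKM and their own fold changes and p-values, none of which was used here. The submitters' processing notes name HISAT2 2.0.5, StringTie 1.3.3b, featureCounts 1.5.0-p3 and DESeq2 1.20.0. The genome build is not given in the sources used here. Libraries were poly-A selected and sequenced as paired reads.

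Counts were filtered with filterByExpr (12391 of 17262 genes), scaled with TMM (factors between 0.969 and 1.03) and compared with glmQLFit (robust) and glmQLFTest of edgeR 4.0.16 in R 4.3.3, adjusted by Benjamini-Hochberg across the tested genes. Standard errors were derived from the F statistic. DESeq2 1.42.0, limma-voom (limma 3.58.1), other scalings, no filter, a replicate block, a correction for gene length (centred) and fits that left out 1 library were the alternatives. The steps were tested on simulated data. The floor of 3 counts was between 0.175 and 0.221 CPM, for counting error only. Replicates are called biological in the labels, and every pair within a time point differed by more than sampling noise (chi-square per degree of freedom from 7.96 to 15.1), so all 6 libraries were kept.

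Members are rows whose symbol is in the list of 10. Members and lists were chosen with earlier results of these data known. From each list the 4 largest significant changes in each direction are named, except where an item is not reported here. Other genes, including ASL1, CRYAA, SIX6 and the neighbours within 20000 bases of a member, and the 5 ratios were chosen after their values were seen. Levels between genes were compared per kilobase of the deposited gene length.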

Additional observations from a re-analysis of the deposited data

How the results depend on the processing

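Each of the 8 members was refitted under 16 alternatives, and 117 of the 128 values kept their direction and their side of the threshold. PAX6, PROX1, SOX2 and GATA3 kept theirs under all 16, with log2 fold changes from 0.49 to 0.64, 0.65 to 0.90, 1.26 to 1.55 and -0.96 to -0.73. Upper-quartile scaling, which moved the median of all genes tested from -0.01 to -0.14, gave 0.16 for SIX3 (adjusted p = 0.150 in edgeR's test), -0.077 for TFAP2A and -0.19 for MAF (adjusted p = 0.0481). Relative to the median of all genes tested these are 0.30, 0.06 and -0.05. The same scaling gave 1901 higher and 3400 lower genes in all, 10 higher and 2 lower partners, and 20 higher and 10 lower genes of the same classes, with library totals there were 2201 higher and 2016 lower, and TMM gave 2450 and 1488.

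With 1 library left out, log2 fold changes ranged from 0.23 to 0.38 for SIX3, -0.36 to -0.23 for SOX1, -0.067 to 0.15 for TFAP2A and -0.090 to 0.00051 for MAF. TFAP2A changed sign without 1 h replicate 2 (-0.067) and MAF without time 0 replicate 1 (0.00051). The number of members called was 3 to 4 higher and 1 to 2 lower, and over all genes tested it was 1965 to 2300 higher and 1035 to 1432 lower. Replicate numbers did not pair the samples, with correlations of same-numbered deviations of -0.076, 0.0047 and -0.041, and the replicate block changed no call of a member (PAX6 0.62, SOX2 1.45, PROX1 0.78, GATA3 -0.83). The causes were not tested. The standard error was widest for SOX2 (0.19).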

Other observations

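Genes that share a DNA-binding class with a member in the deposited annotation, 113 in number without the members, gave 53 that could be tested, of which 25 were significantly higher at 1 h and 6 were significantly lower in edgeR's quasi-likelihood test, with a median log2 fold change of 0.33. Over all genes tested in this main fit, 19.8% were higher and 12.0% were lower. Without 1 h replicate 3, 19 were higher and 6 were lower, and of all 12581 genes tested in that fit 1965 were higher and 1113 lower. With upper-quartile scaling, 20 were higher and 10 were lower, and of all 12391 genes tested 1901 were higher and 3400 lower. Of 7 genes of the MAF-type bZIP class 5 were higher and 1 was lower, of 25 HMG-box genes 11 were higher and 5 were lower, and of 17 homeobox genes 6 were higher. Differences between the classes were not tested.

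Among these relatives, which were chosen after their values were seen, the homeobox gene MSX1 had 1305 CPM on average at 1 h and 134.0 CPM at time 0. SOX4 had 241.4 CPM at 1 h and 90.6 CPM at time 0, and SOX9 had 9.11 CPM at 1 h and 5.02 CPM at time 0. TFAP2C, a paralog of TFAP2A, had 7.63 CPM at 1 h and 3.73 CPM at time 0 (log2 fold change 1.04, adjusted p = 0.00504 in edgeR's test), while TFAP2A itself did not reach the threshold, and the difference between the 2 genes was not tested. The lower HMG-box genes included HMGB1, HMGB2, HMGB3 and UBTF, chromatin and ribosomal gene factors outside the SOX group, with log2 fold changes between -0.39 and -0.24.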
